A study of Rattus norvegicus with 12 samples.

Results

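Red blood cells (RBCs) of 20 d and Cont were compared across 8382 genes with enough counts, of 29539 genes in the deposited table, in 4 libraries of each group. Both groups came from whole blood of wild-type male Wistar rats, 11 weeks old, drawn into the anticoagulant CPDA, a citrate, phosphate and dextrose solution with adenine. The study split the blood of each rat into 3 aliquots and describes the samples of the storage conditions as paired. Which rat gave which library is not stated, so the main fit was unpaired. RBCs of Cont were purified by washing on the day of sampling (0 days), and those of 20 d after 20 days of storage at 4 °C, so that storage and the day of purification cannot be told apart. A group stored for 10 days (4 libraries) entered the fit to share the estimate of the spread. Its libraries also counted in the filter on low counts, the scaling and the mean levels that set the abundance classes. Buffy coat was removed by centrifugation, and no sort or filter for leukocytes was described. In normal whole blood, the study's qPCR of the leukocyte gene *Ptprc* fell after purification, which it judged sufficient. No such check of stored blood was described. In the study's electrophoresis of pooled RNA, the band of the larger ribosomal RNA was weaker in 20 d than in Cont and 10 d. The study judged that no storage condition had degraded the RNA severely. The part of RNA integrity in the differences below was not tested. Because the samples are bulk RNA, fewer cells of a type and less RNA per cell cannot be told apart in any value below.

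Mature mammalian RBCs have no nucleus and make no new RNA. The RNA found in them is left over from the erythroblast and the reticulocyte, and it is led by globin mRNA. Blood also holds leukocytes and platelets, and leukocytes, which have nuclei, carry far more RNA per cell than RBCs. Storage of whole blood in the cold is the ordinary practice behind transfusion, and the transcripts that stay or go during storage were the question of this comparison.

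The total counts were 65735930 to 85996710 per library in Cont and 67960637 to 76970267 in 20 d. Globin genes took 81.3% ± 1.12 (SD, n = 4) of the counts in Cont and 81.6% ± 0.728 (n = 4) in 20 d (exact permutation test, two-sided, p = 0.629) and led every library. The sequences of signal recognition particle RNA (7SL) took 4.57% ± 0.440 in Cont and 5.89% ± 0.390 in 20 d, and mitochondrially encoded RNA took 0.998% ± 0.0775 and 1.30% ± 0.0895. Most of the mitochondrial counts were not mRNA. In Cont replicate 1, AY172581.24 and AY172581.9, of the class of mitochondrial rRNA or tRNA, had 661543 and 146490 counts, against 29599 for *Mt-co1*. All remaining genes shared 13.2% ± 1.55 in Cont and 11.2% ± 0.515 in 20 d, and this part of the library sets the depth for nearly every gene named here. Cont replicate 1 stood nearest to 20 d, with 11.5% of its counts in the remaining genes, against 12.7% to 15.2% in the other Cont libraries, and with a TMM factor of 1.03 against 1.20 to 1.30.

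Fewer genes were detected after storage. Genes with at least 1 count numbered 13949, 14232, 14120 and 14301 in the Cont libraries and 12673, 12897, 12751 and 12619 in the 20 d libraries. The mean fell by 1415.5 genes, and the groups did not overlap (exact permutation test, two-sided, p = 0.0286, the smallest that 4 against 4 can give). With at least 10 counts asked for, 8638.5 genes on average were detected in Cont and 6720.75 in 20 d. The counts of the remaining genes also gathered in fewer genes: 90% of them lay in 824.5 ± 63.5 genes in Cont and 698.25 ± 9.32 in 20 d (exact permutation p = 0.0286, n = 4 per group).

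Falls were found mainly among transcripts of low abundance, although most of those were not called, and most abundant transcripts were retained. Counts were tested with edgeR's quasi-likelihood test after TMM scaling, which sets the middle of the genes to no change, and again with library size alone, which keeps the total fixed. A gene was called at a Benjamini-Hochberg adjusted p under 0.05. With TMM scaling, 1768 of 8382 genes (21.1%) were lower in 20 d and 1075 (12.8%) were higher. With library size alone, 2911 genes (34.7%) were lower and 99 (1.18%) were higher. The choice of scaling moved the median log2 fold change of all genes by -0.39, from -0.01 to -0.39, and values under both are given below for genes whose direction or call differs. All 1768 genes called lower with TMM scaling were also called lower by library size, whereas only 99 of the 1075 genes called higher were higher by both.

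The called falls were mostly larger than the called rises. The median log2 fold change was -2.10 among the genes called lower with TMM scaling and 0.44 among those called higher. Of the 1075 rises, 30 reached a log2 fold change of 1. The highest fitted value among genes called higher under both scalings, 8.61, belonged to ENSRNOG00000071148, singled out after its value was seen, which had no count in Cont and counts in 2 of the 4 libraries of 20 d, so that it gives no size of change. A gene was termed lost where it was called lower under both scalings with a log2 fold change of -2 or less, and retained where the 95% interval of its log2 fold change lay between -1 and 1 under both. By these terms 930 genes (11.1%) were lost and 3583 (42.7%) were retained. Retained does not mean unchanged: 925 of the 3583 were called higher with TMM scaling, 538 were called lower by library size, and 2121 were called under neither. With the interval held within 0.5 in place of 1, 693 genes were retained. The lost genes together held 0.121% ± 0.0376 (SD, n = 4) of the counts in Cont and 0.0110% ± 0.00255 in 20 d, and 26 of them had no count in any 20 d library. Globin, signal recognition particle and mitochondrially encoded genes were left out of the share of retained genes. That share was 9.62% ± 0.750 of the counts in Cont and 9.07% ± 0.432 in 20 d. These 4 shares describe genes chosen by the same contrast and were not tested.

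**Figure D1:**
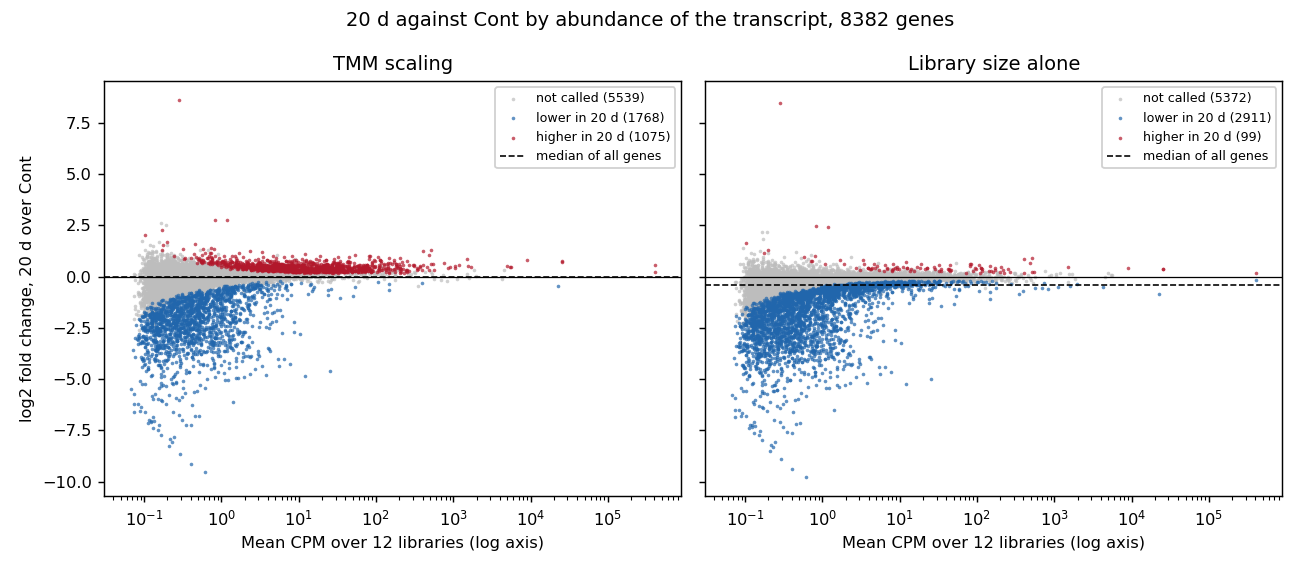
Each point is a gene, with its mean CPM (counts scaled to a fixed library total) over 12 libraries on a log axis and its log2 fold change of 20 d over Cont on the other axis, with TMM scaling on the left and library size alone on the right. The 1768 genes called lower with TMM scaling lie mainly at low CPM, and the dashed median of all genes moves from -0.01 to -0.39 between the panels.

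The shares of called, lost and retained genes varied with abundance. The retained share is bound to precision, since the median SE was 0.47 under 0.5 CPM and 0.087 between 10 and 50 CPM, and an interval within 1 is hardly attainable at the former. The classes also rest on means that include the 20 d libraries themselves, so that a gene that fell sits in a lower class. Among 3508 genes under 0.5 CPM, 28.6% were lower, 0.428% were higher and 18.3% were lost. In the 0.5 to 2 CPM class, 25.1% of 2369 genes were lower and 10.3% were lost. Between 2 and 10 CPM, 9.38% of 1609 genes were lower and 87.0% were retained. Of 636 genes with 10 to 50 CPM, 2.20% were lower, 57.4% were higher and 94.7% were retained. Of 35 genes over 500 CPM, 1 was lower and none was lost. By library size the share of lower genes was 38.3% and 39.0% in the lowest classes and 13.3% between 50 and 500 CPM, and it was 28.6% over 500 CPM, where 35 genes were tested.

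The filter on low counts bears on the lowest classes. A gene was tested if 4 of the 12 libraries reached 0.130 CPM, and 2712 of the tested genes did not reach this in all 4 libraries of 20 d. Of these, 821 were lost, and of the 5670 that did reach it, 109 were lost. For 81 genes the 4 Cont libraries alone carried the gene past the filter, so that their fall (69 called lower) follows in part from the filter. The tested gene with the fewest counts had 59 over the 12 libraries, and the untested gene with the most had 226, gathered in too few libraries. Another 13149 genes had a count but were not tested, and they held 0.0326% of the counts in Cont and 0.0168% in 20 d. A further 2890 genes were neither called with TMM scaling nor retained, with a median of 0.248 CPM and a median SE of 0.42 on the log2 scale, against a median SE of 0.13 among retained genes.

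**Figure D2:**
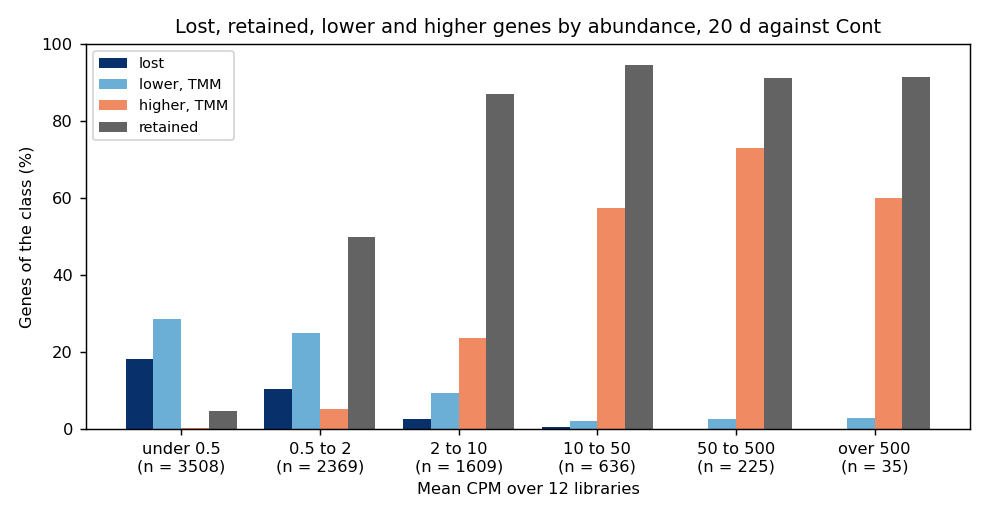
Bars give the percentage of genes in each class of mean CPM over 12 libraries that were lost, lower with TMM scaling, higher with TMM scaling, or retained, with the number of genes under each class. The lost share falls from 18.3% to 0.472% between the lowest class and 10 to 50 CPM, while the retained share, which depends on the SE, rises from 4.62% to 94.7%; the higher share holds for TMM scaling and is far smaller by library size.

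Transcript length moved with the outcome as well. Summed exon lengths, recovered from the deposited counts and RPKM values, were split at 2138, 3286.5 and 4912 bases into 4 classes of nearly equal size. The lower share rose from 15.3% of the shortest class to 26.3% of the longest, and the higher share fell from 18.6% to 9.83%. Among genes of 0.5 to 2 CPM the lower share was 15.3% in the shortest and 37.2% in the longest class. Among genes of 2 to 10 CPM the higher share was 40.3% in the shortest and 11.7% in the longest class. Between 50 and 500 CPM it followed no such order, at 69.0%, 91.1%, 63.0% and 72.3% from the shortest to the longest class. The lost share did not follow length, at 11.3% in the shortest and 10.2% in the longest class. Longer genes gather more reads at the same number of molecules. Among genes of 0.5 to 2 CPM, the shortest and longest classes had a median mean CPM of 0.909 and 0.957. Their median SE was 0.235 and 0.232, and their median log2 fold change 0.153 and -0.264 with TMM scaling. The part of read number in the trend was not tested.

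By gene class, genes matched to RefSeq as protein-coding, by identifier or symbol, resembled the whole table, with 12.4% of 7138 higher and 21.5% lower. Among the 859 tested genes with neither a symbol nor such a match, 103 were higher and 161 lower. Mitochondrial mRNAs and small structured RNAs stood apart from this pattern and are described after the cell markers. No microRNA gene of 423 in the table passed the filter.

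Genes that mark leukocytes were almost all lower in 20 d. The 8 lists of genes of T cells, B cells, NK cells, neutrophils, monocytes or macrophages, basophils or eosinophils, MHC class II and leukocytes at large hold 116 genes of the table, some in more than 1 list. Of these, 74 were tested, 70 were called lower under both scalings, 63 were lost and none was higher, with a median log2 fold change of -3.50 against -0.01 over all genes tested. The fall of a gene that passed the filter through the Cont libraries alone follows in part from the filter. The number of such genes among the 74 was not counted. Their summed level was 202, 310, 301 and 238 CPM in the Cont libraries and 46.5, 55.1, 56.7 and 51.7 CPM in the 20 d libraries (TMM-scaled CPM, as for all levels that follow). *Cd52* alone made up 25 to 28.3 CPM of the sum in 20 d. The part of leukocyte RNA in the falls of other genes was not tested.

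Neutrophil genes fell throughout. All 13 tested genes of 22 in the table were lower, with a median log2 fold change of -3.62. *S100a9*, a calcium-binding alarmin abundant in neutrophils (chromosome 2, 176190361 to 176193230, minus strand, mRatBN7.2), had 20.7, 28.9, 26.1 and 18.1 CPM in Cont and 0.511, 0.855, 1.21 and 0.737 CPM in 20 d. All 20 d libraries lay below all Cont libraries, at a log2 fold change of -4.83 ± 0.30, adjusted p = 4.28e-09 or 28.3-fold lower. Values in parentheses after a gene are from here on its log2 fold change with TMM scaling ± SE and the adjusted p of edgeR's test. The partner gene *S100a8* was lower as well (-4.77 ± 0.33, adjusted p = 1.69e-08). *Csf3r*, the receptor for granulocyte colony-stimulating factor, changed by -2.75 ± 0.31, adjusted p = 2.67e-06.

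*Lyz2*, *Ifit3* and *Il1b* are genes for which the study designed qPCR assays, and the primers are shown because they define the transcripts proposed as storage markers. They are listed 5′ to 3′ in lower case, as given in the supplement of the study.
Lyz2 forward: tgaacgctgtgagttcgcc
Lyz2 reverse: agctaaacacacccagtctgc
Ifit3 forward: gatcgccgtcatgagtgagg
Ifit3 reverse: acattgtcgctttgtgctcag
Il1b forward: cagctttcgacagtgaggaga
Il1b reverse: ttgtcgagatgctgctgtga
The study chose these genes on the same libraries, so their falls here are no independent evidence. It then ran qPCR on all its samples, from 6 rats. By its report the 3 genes decreased with storage as in the sequencing, while a further candidate, *Ccl6*, showed no similar pattern. *Lyz2*, the lysozyme of myeloid cells, had 38, 68.1, 55.8 and 44.1 CPM in Cont and 1.22, 2.04, 2.74 and 2.45 CPM in 20 d, the highest level in Cont among the lost genes named here, and changed by -4.61 ± 0.38, adjusted p = 1.39e-07. *Ifit3*, an interferon-induced antiviral gene, had 10.9, 19.2, 12.7 and 10.6 CPM in Cont and 0.992, 0.765, 1.10 and 0.496 CPM in 20 d (-4.0 ± 0.32, adjusted p = 9.58e-08). *Il1b*, the inflammatory cytokine interleukin-1 beta, had 6.16, 10.6, 8.59 and 6.50 CPM in Cont and 0.646, 0.735, 0.868 and 0.524 CPM in 20 d (-3.52 ± 0.25, adjusted p = 2.1e-08). In each of the 3 genes no 20 d library reached the lowest Cont library. *Ptprc*, which encodes the leukocyte antigen CD45 and was the study's check on purity, had 9.91, 19.7, 21.6 and 15.6 CPM in Cont and 1.44, 2.80, 3.35 and 1.93 CPM in 20 d (-2.81 ± 0.24, adjusted p = 1.87e-07). Cont replicate 1 had the lowest *Ptprc* and *Lyz2* levels of its group.

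Lymphocyte genes fell as well. Of the B cell list, 14 of 15 tested genes were lower (median -3.55), and the exception was *Ebf1*, at -0.64 ± 0.45, adjusted p = 0.298. *Ighm*, the heavy chain of immunoglobulin M, had 2.50, 2.87, 3.41 and 3.61 CPM in Cont and 0.135, 0.120, 0.0465 and 0.142 CPM in 20 d (-4.77 ± 0.22, adjusted p = 2.14e-10). *Cd74*, the invariant chain of MHC class II, which stands in both lists, changed by -4.51 ± 0.18, adjusted p = 2.13e-11, and all 9 tested MHC class II genes were lower. All 10 tested T cell genes of 18 in the table were lower, with a median log2 fold change of -5.42. The median of their mean CPM over 12 libraries was 0.278 by library size, so the filter may bear on these calls. *Lck*, a kinase of T cell receptor signalling, had 0.782, 0.811, 0.656 and 0.462 CPM in Cont and 0.0301, 0, 0 and 0.0425 CPM in 20 d (-5.07 ± 0.60, adjusted p = 5.06e-06). *Tcf7*, a T cell transcription factor, had 374 counts over the Cont libraries and 2 over the 20 d libraries, 137-fold lower with a 95% counting interval of 37.7 to 1138. *Pou2af1*, a B cell coactivator, had 79 counts in Cont and none in 20 d, at least 19.3-fold lower with a floor of 3 counts for the whole group. Intervals and limits of this kind cover counting error only.

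The monocyte list lost 5 of 6 tested genes to lower levels, and *Mrc1*, a macrophage mannose receptor, was the exception (0.47 ± 0.47, adjusted p = 0.484). In the pan-leukocyte list 17 of 19 tested genes were lower with TMM scaling and 19 by library size. The 2 others, *Cd52* and *Cd48*, were retained. *Cd52*, a small glycoprotein anchored in the lymphocyte membrane, had 22.1, 27.8, 28.7 and 35.9 CPM in Cont and 25.4, 26, 25 and 28.3 CPM in 20 d, with overlapping groups (-0.13 ± 0.11, adjusted p = 0.392 with TMM scaling, and -0.53 by library size). *Cd48*, a partner of lymphocyte receptors, behaved likewise (-0.16 ± 0.11, adjusted p = 0.312, and -0.56 by library size). Few platelet genes were called lower: 2 of 13 tested genes were lower, with a median log2 fold change of -0.07 and -0.38 by library size. Their median SE was 0.56 and 1 of the 13 was retained, so that most were neither called nor shown to be stable. Those 2 were *Vwf*, the von Willebrand factor (-2.67 ± 0.54, adjusted p = 0.000874), and *Itgb3*, an integrin of the fibrinogen receptor (-1.93 ± 0.47, adjusted p = 0.00407). The platelet receptor gene *Gp1ba* had 0.317, 0.405, 0.586 and 0.538 CPM in Cont and 0.391, 0.285, 0.450 and 0.312 CPM in 20 d, with overlapping groups, and all platelet levels were under 2 CPM.

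**Figure D3:**
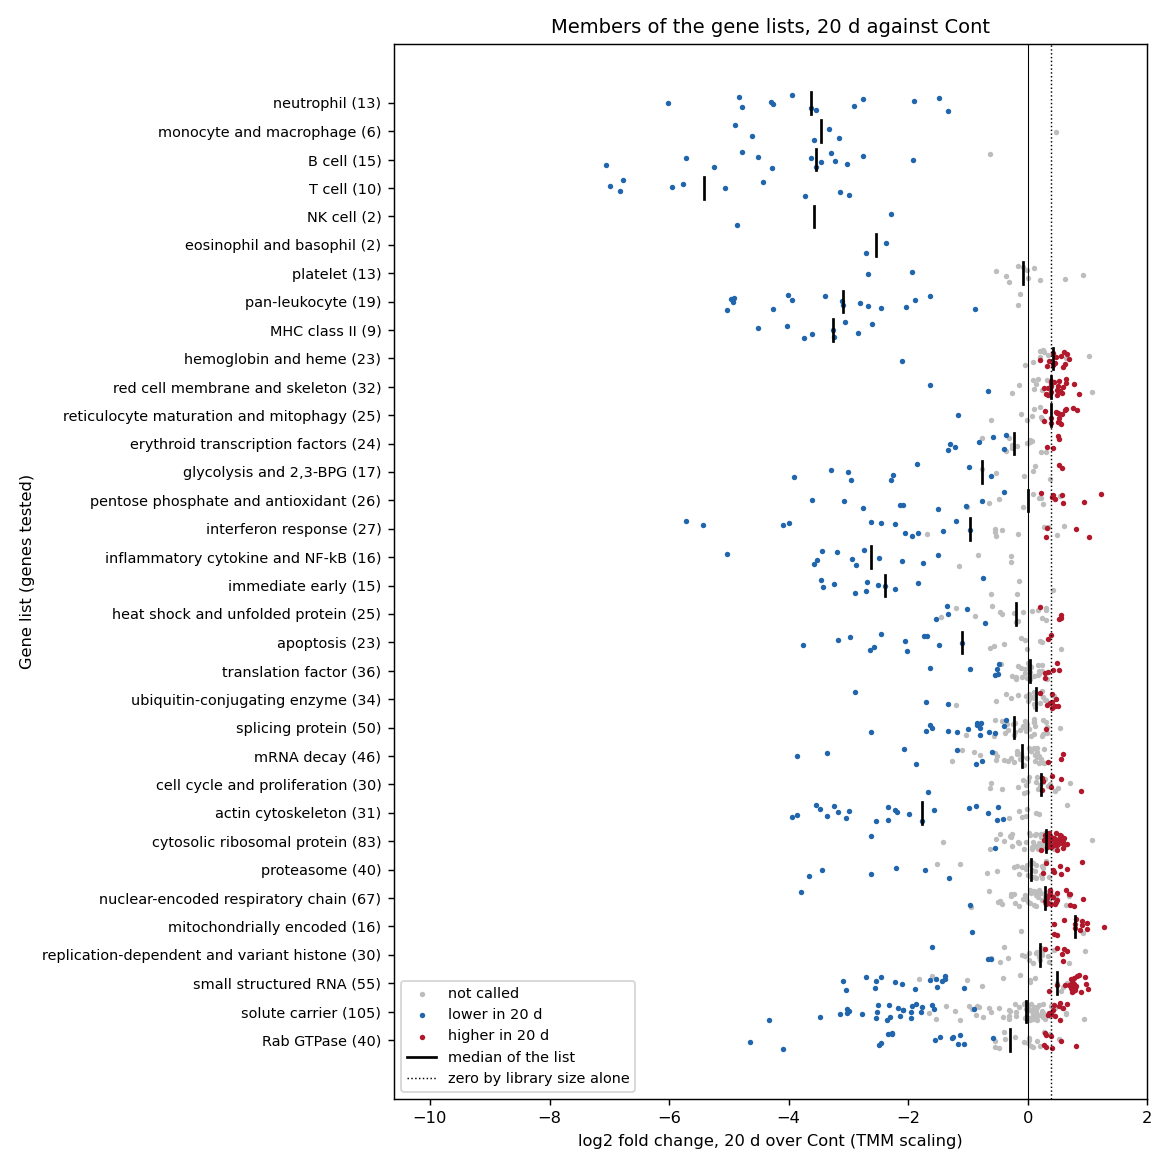
Each point is a tested gene of a list, placed by its log2 fold change of 20 d over Cont with TMM scaling and coloured by its call, with a bar at the median of the list and a dotted line where no change would lie by library size alone. The leukocyte lists lie between medians of -5.42 and -2.53, and the hemoglobin, red cell membrane and reticulocyte lists lie at 0.39 to 0.42, on the dotted line.

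Most transcripts that characterize the RBC and the reticulocyte were retained, as were most abundant genes of any kind. Of all genes tested, 42.7% were retained, and of those with at least 10 CPM, 93.6%. Of the latter, 61.4% were higher with TMM scaling and 6.81% by library size. The hemoglobin, red cell membrane and reticulocyte lists had median levels of 26.7, 17.8 and 32.0 CPM. Of the hemoglobin and heme list, 13 of 23 tested genes were higher with TMM scaling, 1 was lower and 19 were retained, whereas by library size 1 was higher and 4 were lower, with medians of 0.42 and 0.03 under the 2 scalings. *Hbb-b1*, a beta globin, had 425403, 317683, 275713 and 307901 CPM in Cont and 524157, 478258, 472056 and 471700.0 CPM in 20 d and was higher under both scalings (0.55 ± 0.11, adjusted p = 0.000586, and 0.18 by library size). *Hba-a2*, an alpha globin, was higher with TMM scaling (0.21 ± 0.08, adjusted p = 0.0416) and lower by library size (-0.18). The call of *Hba-a2* with TMM scaling was lost in 5 of 12 fits without 1 library, with adjusted p of 0.0531 to 0.111 (without Cont replicate 2, 10 d replicate 2, or 20 d replicate 1, 2 or 4). Near-identical globin copies share reads, and the split between them is uncertain. *Fech*, the enzyme that inserts iron into heme, had 517, 501, 657 and 507 CPM in Cont and 859, 911, 881 and 805 CPM in 20 d (0.66 ± 0.09, adjusted p = 1.78e-05, and 0.27 by library size).

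Red cell membrane and skeleton genes showed the same level of retention. Of 32 tested genes, 20 were higher and 2 lower with TMM scaling, 4 were higher and 3 lower by library size, and 26 were retained, with medians of 0.39 and 0.00. *Slc4a1*, the band 3 anion exchanger, had 340.4, 358, 518 and 436 CPM in Cont and 397, 412, 406 and 558 CPM in 20 d, with overlapping groups (0.10 ± 0.12, adjusted p = 0.569, and -0.30 by library size). *Rhd*, a Rh blood group protein, had 75.5, 63, 64.1 and 64.5 CPM in Cont and 110.4, 116, 119.6 and 113 CPM in 20 d, and rose under both scalings (0.78 ± 0.07, adjusted p = 2.44e-07, and 0.40 by library size). *Add2*, an adducin of the spectrin skeleton, changed by 0.39 ± 0.06, adjusted p = 0.000150 and by 0.00 with library size alone. *Sptb*, the beta spectrin of the RBC skeleton, went the other way, with 90.6, 125, 192 and 176 CPM in Cont and 76.7, 75, 80.0 and 136 CPM in 20 d (-0.67 ± 0.20, adjusted p = 0.0143). The groups overlapped for *Sptb*, and its adjusted p rose to 0.0820, 0.0630 and 0.0523 without Cont replicate 3, Cont replicate 4 and 20 d replicate 2.

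Genes of reticulocyte maturation and mitophagy, the removal of mitochondria, were higher in 16 of 25 and lower in 1 with TMM scaling, and higher in 2 and lower in 4 by library size, with medians of 0.40 and 0.01, and 21 were retained. *Bnip3l*, the mitophagy receptor of the reticulocyte, had 1475, 1209, 1225 and 1207 CPM in Cont and 1891, 1868, 1747 and 1758 CPM in 20 d (0.51 ± 0.08, adjusted p = 5.79e-05, and 0.12 by library size). *Alox15*, a lipoxygenase of the maturing reticulocyte, had 795, 716, 915 and 836 CPM in Cont and 1199, 1124, 1082 and 1197 CPM in 20 d (0.50 ± 0.08, adjusted p = 7.97e-05, and 0.10 by library size). No 20 d library of either gene lay below a Cont library with TMM scaling.

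Erythroid transcription factors were near the background with TMM scaling. Of 24 tested, 16.7% (4) were higher and 29.2% (7) lower, against 12.8% and 21.1% of all genes tested, and by library size none was higher and 14 were lower. *Klf1*, the main activator of adult beta globin, had 37.6, 32.8, 35.9 and 36.8 CPM in Cont and 49.3, 50.7, 53 and 53.3 CPM in 20 d (0.53 ± 0.08, adjusted p = 5.05e-05, and 0.14 by library size). *Nfe2* (0.51 ± 0.12, adjusted p = 0.00320) and *E2f2* (0.32 ± 0.08, adjusted p = 0.00413) were higher with TMM scaling, and by library size they stood at 0.12 and -0.07. *Klf3*, a repressor that binds sites shared with *Klf1*, was lower, with 12.1, 14.9, 20.2 and 18.5 CPM in Cont and 9.32, 11, 10.6 and 12.9 CPM in 20 d (-0.59 ± 0.13, adjusted p = 0.00237). *Zfpm1*, the partner of Gata1 known as Fog1, was lower by a smaller amount and was retained by the interval (-0.36 ± 0.09, adjusted p = 0.00495).

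Of the most abundant genes outside the globins, 7SL and mitochondrial RNA, the first was called lower and is described with the abundant genes that fell. *Ubb*, a polyubiquitin gene, had 4707, 4484, 4770.2 and 4738 CPM in Cont and 5856, 6415, 7061 and 6235 CPM in 20 d (0.45 ± 0.07, adjusted p = 9.78e-05, and 0.06 by library size). *Tpt1*, which encodes the translationally controlled tumor protein, changed by 0.53 ± 0.08, adjusted p = 5.03e-05 with TMM scaling and 0.15 by library size. *Cdc25b*, a phosphatase that starts mitosis, had 1991, 1750.1, 1884 and 1872 CPM in Cont and 1991, 1897, 1725 and 2003 CPM in 20 d, with overlapping groups (0.02 ± 0.07, adjusted p = 0.852, and -0.37 by library size). *Ybx3*, a cold shock domain protein that binds mRNA, changed by -0.12 ± 0.07, adjusted p = 0.184 with TMM scaling and by -0.51 with library size. *Ftl1_1*, a ferritin light chain copy, changed by -0.09 ± 0.08, adjusted p = 0.381 with TMM scaling and by -0.48 with library size. *Tent5c*, a poly(A) polymerase, was at 0.30 ± 0.13, adjusted p = 0.0816 with TMM scaling and at -0.10 by library size, and it was called higher without Cont replicate 3 (0.50, adjusted p = 0.00161) or without 20 d replicate 1 (0.38, adjusted p = 0.0378).

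A few abundant genes did fall. Of 896 genes with at least 10 CPM, 839 were retained, 21 were lower with TMM scaling and 61 were higher under both scalings. The lost genes among the 21 were *Lyz2*, *S100a9* and *Ptprc*. The most abundant of the 21 was ENSRNOG00000064743, a gene of chromosome 3 that the table does not name, with 20414, 19225, 27770.3 and 22984 CPM in Cont and 16068, 17116, 15359 and 16619 CPM in 20 d (-0.47 ± 0.12, adjusted p = 0.00404, and -0.87 by library size). The next examples were picked after their values were seen. *Med25*, a subunit of the Mediator complex, had 42.2, 51.4, 70.9 and 73 CPM in Cont and 28.6, 26.8, 29.5 and 37.8 CPM in 20 d (-0.95 ± 0.15, adjusted p = 6.81e-05). *Slc38a5*, a glutamine transporter, had 18.8, 26.1, 32.2 and 32.8 CPM in Cont and 12, 16.1, 14.3 and 16.9 CPM in 20 d (-0.89 ± 0.14, adjusted p = 9.24e-05). *Slfn4_1*, a Schlafen family copy, had 30.1, 57.1, 54 and 32.8 CPM in Cont and 18.3, 28.2, 24.8 and 13.6 CPM in 20 d (-1.04 ± 0.27, adjusted p = 0.00684). For these 3 genes no 20 d library reached a Cont library.

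The largest rises among genes of at least 2 CPM with a symbol were near a log2 fold change of 1. *Gpx1*, the glutathione peroxidase of the RBC, had 233, 211, 232 and 212 CPM in Cont and 483, 538, 548 and 518 CPM in 20 d (1.23 ± 0.07, adjusted p = 2.46e-09, and 0.85 by library size). *Arl4a*, a small GTPase, had 1.96, 2.07, 2.04 and 1.82 CPM in Cont and 3.92, 5.62, 4.68 and 3.74 CPM in 20 d (1.19 ± 0.14, adjusted p = 5.57e-06). *Acsl1*, which activates long-chain fatty acids, had 6.55, 6.32, 7.03 and 7.82 CPM in Cont and 14.2, 14.6, 13.7 and 16.2 CPM in 20 d (1.09 ± 0.09, adjusted p = 1.7e-07). *Rsad2*, the interferon-induced protein viperin, had 330.3, 253, 307 and 275 CPM in Cont and 603, 593, 575 and 610.1 CPM in 20 d (1.03 ± 0.08, adjusted p = 4.55e-08). *Ankle2* (1.02 ± 0.09, adjusted p = 2.03e-07), *Yipf4* (1.01 ± 0.13, adjusted p = 9.28e-06) and *Ncoa4_2*, a copy of the ferritin autophagy receptor (1.02 ± 0.13, adjusted p = 1.55e-05), completed the nuclear genes of this set. These 7 genes were chosen for their size of change, for the call under both scalings and for groups that do not overlap, so these properties are no further result.

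**Figure D4:**
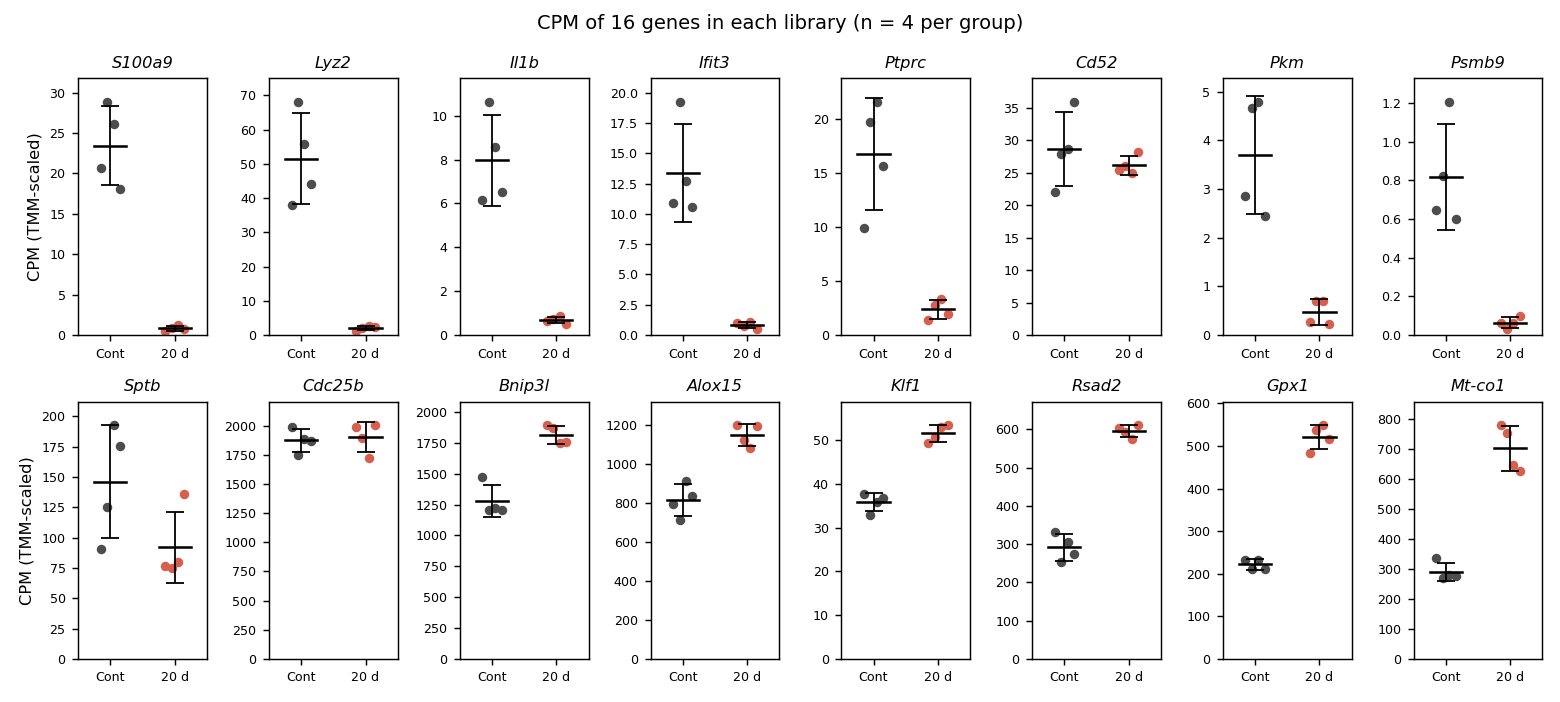
Points are the TMM-scaled CPM of 16 genes in the 4 Cont and the 4 20 d libraries, with the mean as a line and the SD as a bar, on axes that start at 0. *S100a9*, *Lyz2*, *Il1b*, *Ifit3*, *Ptprc*, *Pkm* and *Psmb9* lie near 0 in 20 d, *Cd52*, *Sptb* and *Cdc25b* overlap between the groups, and the remaining 6 lie higher in 20 d with TMM scaling; for *Bnip3l*, *Alox15* and *Klf1* no call remained by library size.

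Interferon genes were split between retained or higher members at high levels and lost members at low levels. Of 27 tested, 4 were higher and 13 lower with TMM scaling (median -0.97), and 2 were higher and 18 lower by library size. A split by level was also seen over all genes tested, as given below. *Rsad2* and *Ifit1bl*, an Ifit1-like gene with 142, 117, 119 and 98.2 CPM in Cont and 230.4, 217, 216 and 172 CPM in 20 d (0.81 ± 0.11, adjusted p = 1.92e-05), were the 2 that rose under both scalings. *Irf7*, a transcription factor of the interferon response, had 301, 179, 174 and 220.2 CPM in Cont and 348, 246, 229 and 281 CPM in 20 d and was retained (0.34 ± 0.17, adjusted p = 0.132, and -0.03 by library size), and without Cont replicate 1 it was called higher (0.56, adjusted p = 0.00772). *Gbp2*, an interferon-induced GTPase, had 2.50, 5.82, 4.28 and 2.34 CPM in Cont and 0.0301, 0.435, 0.202 and 0.198 CPM in 20 d (-4.10 ± 0.49, adjusted p = 6.33e-06). *Mx1*, an antiviral GTPase, had 200 counts over the Cont libraries and 3 over the 20 d libraries, 48.9-fold lower with a counting interval of 16.5 to 239. The lower members include *Ifit3*, and the leukocyte lists fell beside them as given above.

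Inflammatory and immediate early genes held no member that rose. Of 16 tested inflammatory cytokine and NF-kB genes 12 were lower (median -2.62), and of 15 immediate early genes 11 were lower (median -2.38), with 12 lower in each list by library size. *Nlrp3*, the inflammasome sensor, had 1.37, 2.86, 2.91 and 1.88 CPM in Cont and 0.677, 0.555, 1.02 and 0.425 CPM in 20 d (-1.75 ± 0.36, adjusted p = 0.000910). *Klf6*, an early response transcription factor, had 2.87, 4.91, 4.69 and 3.87 CPM in Cont and 0.391, 0.360, 0.295 and 0.468 CPM in 20 d (-3.42 ± 0.24, adjusted p = 1.86e-08). *Btg2*, an antiproliferative early gene, fell less (-0.74 ± 0.11, adjusted p = 4.16e-05), and *Jund*, the most abundant of the list with 20.1, 24.8, 28.4 and 23.9 CPM in Cont and 18.6, 23.6, 22.3 and 23 CPM in 20 d, was retained (-0.15 ± 0.11, adjusted p = 0.299, and -0.55 by library size).

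Genes of glycolysis, the source of ATP in the RBC, differed in outcome. Of 17 tested genes of glycolysis and 2,3-bisphosphoglycerate, 2 were higher with TMM scaling and none by library size, and 9 were lower under both. The 2 were *Bpgm*, the RBC enzyme that makes 2,3-bisphosphoglycerate (887, 811, 1024 and 844 CPM in Cont and 1260.4, 1339, 1405 and 1302 CPM in 20 d, 0.57 ± 0.08, adjusted p = 1.77e-05), and *Hk1*, the hexokinase of RBCs (0.53 ± 0.08, adjusted p = 9.36e-05). By library size they stood at 0.18 and 0.14. *Pkm*, the pyruvate kinase of most tissues other than liver and RBCs, had 2.87, 4.66, 4.79 and 2.45 CPM in Cont and 0.271, 0.705, 0.698 and 0.227 CPM in 20 d (-2.96 ± 0.34, adjusted p = 3.24e-06). *Pklr*, the gene of the RBC and liver pyruvate kinase, had 1.47, 1.34, 1.11 and 1.39 CPM in Cont and 1.55, 2.04, 1.47 and 1.84 CPM in 20 d and was retained (0.38 ± 0.15, adjusted p = 0.0610, and -0.0023 by library size). *Ldha*, lactate dehydrogenase A, had 1.44, 1.52, 1.08 and 1.14 CPM in Cont and 0.0451, 0.195, 0.217 and 0.0709 CPM in 20 d (-3.29 ± 0.35, adjusted p = 1.9e-06). *Pkm*, *Pklr* and *Ldha* were chosen after their values were seen, and no set of isozymes was tested.

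Pentose phosphate and antioxidant genes were split by level. Of 8 with at least 10 CPM, 7 were higher with TMM scaling and none was lower. Of 13 under 2 CPM, 7 were lower and none was higher. All genes tested were split in the same way. With TMM scaling, 61.4% of those with at least 10 CPM were higher and 2.34% lower, against 2.42% and 27.2% of those under 2 CPM. By library size 6.81% of those with at least 10 CPM were higher. The genes named in this paragraph were all higher with TMM scaling. Of 26 tested genes of the pentose phosphate and antioxidant list, 8 were higher and 9 lower with TMM scaling, and 3 were higher and 9 lower by library size. The 3 were *Gpx1*, *Gpx4* and *Glrx5*. *Gpx4*, the peroxidase that reduces lipid peroxides, had 34, 31.3, 27.1 and 28.8 CPM in Cont and 57.5, 62.8, 59.5 and 52.9 CPM in 20 d (0.94 ± 0.09, adjusted p = 3.51e-07). *Glrx5*, a mitochondrial glutaredoxin needed for iron-sulfur clusters, had 239, 208, 194 and 208 CPM in Cont and 309.7, 340.0, 322 and 296 CPM in 20 d (0.58 ± 0.07, adjusted p = 1.15e-05). *Prdx2*, the abundant peroxiredoxin of the RBC, changed by 0.42 ± 0.07, adjusted p = 0.000141 with TMM scaling and by 0.03 with library size.

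In the proteasome list 20.0% of 40 tested genes were higher and 15% lower with TMM scaling, near the 12.8% and 21.1% of all genes tested, and by library size 11 were lower and none was higher, with medians of 0.06 and -0.32. All 3 inducible catalytic subunits of the immunoproteasome were among the 6 that were lower, a selection made after their values were seen. *Psmb9* had 0.646, 0.821, 1.21 and 0.602 CPM in Cont and 0.0601, 0.0300, 0.0620 and 0.0992 CPM in 20 d (-3.66 ± 0.38, adjusted p = 1.18e-06). *Psmb8* (-3.44 ± 0.67, adjusted p = 0.000621) and *Psmb10* (-2.62 ± 0.61, adjusted p = 0.00275) were lost as well. *Psmd4*, a ubiquitin receptor of the regulatory particle, had 23.9, 22.3, 21.7 and 18.9 CPM in Cont and 32.7, 31.6, 31.6 and 30.2 CPM in 20 d (0.54 ± 0.08, adjusted p = 8.03e-05), and *Psma6*, a subunit of the core, changed by 0.30 ± 0.08, adjusted p = 0.00964, but by library size neither was called (0.15 and -0.09).

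Among actin cytoskeleton genes 23 of 31 tested were lower with TMM scaling and 28 by library size, and none was higher, with a median log2 fold change of -1.76, and *Coro1a* is also a pan-leukocyte gene. *Actb*, *Pfn1* and *Arpc2*, the 3 most abundant, were retained, with *Actb* at 150.4, 179.7, 196 and 176 CPM in Cont and 144, 170.2, 149.7 and 170.4 CPM in 20 d (-0.15 ± 0.09, adjusted p = 0.211, and -0.55 by library size). *Actg1_2*, a gamma actin copy, had 2.62, 4.64, 5.83 and 3.31 CPM in Cont and 0.271, 0.240, 0.434 and 0.184 CPM in 20 d (-3.86 ± 0.31, adjusted p = 1.08e-07). *Arpc1b*, an Arp2/3 subunit (-3.54 ± 0.29, adjusted p = 1.08e-07), and *Zyx*, the focal adhesion protein zyxin (-3.17 ± 0.30, adjusted p = 3.91e-07), were also lost. Reads of *Actg1* copies may be shared with each other and with *Actb*.

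Cytosolic ribosomal protein genes were higher in 39 of 83 tested and lower in 2 with TMM scaling, but higher in 1 and lower in 9 by library size, with medians of 0.31 and -0.07, so that their direction depends on the scaling, and 65 were retained. *Rplp1*, an acidic protein of the ribosomal stalk, had 206, 137, 144 and 159 CPM in Cont and 252, 221, 261 and 254 CPM in 20 d and was higher under both (0.61 ± 0.11, adjusted p = 0.000253, and 0.24 by library size). *Rpl35* overlapped between the groups (0.13 ± 0.12, adjusted p = 0.435, and -0.26 by library size). Of 36 translation factors, 16.7% were higher and 16.7% lower with TMM scaling, near the shares of all genes, and none was higher and 11 were lower by library size. *Eef1a1*, an elongation factor, changed by 0.30 ± 0.08, adjusted p = 0.00530 with TMM scaling and by -0.09 with library size. *Pabpc1*, the poly(A)-binding protein, varied within both groups, with 207, 366, 482 and 352 CPM in Cont and 174, 287, 276 and 298 CPM in 20 d (-0.44 ± 0.21, adjusted p = 0.107, and -0.86 by library size), and was called lower without Cont replicate 1 (-0.61, adjusted p = 0.00811).

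Of 50 tested splicing proteins, 32.0% were lower and 1 gene higher with TMM scaling (median -0.22), and 25 were lower and none higher by library size. Of 46 mRNA decay genes, 17.4% were lower, under the 21.1% of all genes, and 6.52% higher with TMM scaling (median -0.10), and 23 were lower and none higher by library size. *Ddx5*, a helicase of splicing, had 7.66, 8.89, 8.72 and 6.77 CPM in Cont and 2.45, 2.61, 2.98 and 2.31 CPM in 20 d (-1.63 ± 0.13, adjusted p = 1.14e-07). *Btg1*, which recruits the deadenylase and is abundant in resting lymphocytes, had 4.17, 6.05, 5.88 and 5.59 CPM in Cont and 0.180, 0.540, 0.527 and 0.241 CPM in 20 d (-3.87 ± 0.24, adjusted p = 4.22e-09). *Son* (-0.05 ± 0.08, adjusted p = 0.726, and -0.43 by library size) and *Pan3*, a subunit of a deadenylase (0.14 ± 0.07, adjusted p = 0.126, and -0.24 by library size), were retained, and both were called lower by library size only.

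Apoptosis genes were lower in 12 of 23 tested and higher in 2 with TMM scaling, and lower in 15 and higher in none by library size. *Mcl1*, a short-lived survival factor, had 4.20, 6.27, 5.54 and 5.07 CPM in Cont and 2.27, 2.32, 2.78 and 2.45 CPM in 20 d (-1.10 ± 0.13, adjusted p = 5.45e-06). *Pmaip1*, the BH3-only protein Noxa, was lost (-3.75 ± 0.49, adjusted p = 1.43e-05). *Bcl2l1*, the survival factor of late erythroblasts, had 21.3, 22, 26.5 and 22.8 CPM in Cont and 26.6, 31.2, 29.6 and 30.4 CPM in 20 d (0.35 ± 0.08, adjusted p = 0.00302, and -0.05 by library size). Among 25 heat shock and unfolded protein genes 4 were higher and 5 lower with TMM scaling, near the shares of all genes, whereas 14 were lower and none higher by library size. *Calr*, a calcium-binding chaperone, was at 0.52 ± 0.09, adjusted p = 0.000186 and 0.15 under the 2 scalings, and *Hsp90b1*, a chaperone of the endoplasmic reticulum, was lower (-1.54 ± 0.38, adjusted p = 0.00419). Cell cycle genes, left from the dividing erythroblast, were higher in 7 of 30 and lower in 1 with TMM scaling, and higher in none and lower in 5 by library size, with medians of 0.22 and -0.15, and *Tk1*, a thymidine kinase of the S phase, had 24.3, 26.6, 24.9 and 25.7 CPM in Cont and 35.5, 39.4, 38.5 and 36.7 CPM in 20 d (0.57 ± 0.07, adjusted p = 1.41e-05, and 0.17 by library size).

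In the other families, 6 of 30 tested histone genes were higher and 3 lower with TMM scaling, none was higher and 5 were lower by library size, and *Hist3h2ba* stood at 0.66 ± 0.10, adjusted p = 4.48e-05 and 0.26. Ubiquitin-conjugating enzymes were higher in 9 of 34 and lower in 3 with TMM scaling, and higher in none and lower in 7 by library size, with *Ube2v1* at 0.40 ± 0.08, adjusted p = 0.000682 and 0.01 under the 2 scalings. Of the tested solute carriers 10.5% were higher and 24.8% lower with TMM scaling, near the 12.8% and 21.1% of all genes, and none was higher and 41.9% were lower by library size. Rab GTPases were higher in 8 of 40 and lower in 15 with TMM scaling, and higher in 1 and lower in 18 by library size.

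The lists outside leukocytes and platelets were also split by level. Of 222 such genes with at least 10 CPM, 155 were higher with TMM scaling, 5 were lower and none was lost, and by library size 33 were higher and 31 lower. Of 479 with under 2 CPM, 13 were higher, 166 (34.7%) were lower and 93 were lost. By library size 218 of the 479 were lower and none was higher. Over all genes tested, 2.34% of those with at least 10 CPM and 27.2% of those under 2 CPM were lower with TMM scaling, and 18.5% and 38.6% by library size. The higher shares over all genes were 61.4% and 2.42% with TMM scaling, and 6.81% and 0.221% by library size.

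Mitochondrially encoded RNA rose, and the nuclear partners of the respiratory chain depended on the scaling. Of 16 tested mitochondrial genes, 13 were higher with TMM scaling and 8 by library size, with medians of 0.80 and 0.41. *Mt-co1*, a cytochrome c oxidase subunit, had 335, 271, 278 and 275 CPM in Cont and 777, 753, 647 and 625 CPM in 20 d (1.27 ± 0.11, adjusted p = 1.29e-07, and 0.89 by library size). *Mt-co2* (1.0 ± 0.09, adjusted p = 1.87e-07) and *Mt-atp8*, a subunit of the ATP synthase (1.0 ± 0.13, adjusted p = 1.55e-05), were also among the 10 largest rises. *Mt-nd3*, a subunit of complex I, was the only one of the 16 called lower, with 1.59, 1.88, 1.60 and 1.63 CPM in Cont and 0.662, 1.03, 0.729 and 1.09 CPM in 20 d (-0.93 ± 0.19, adjusted p = 0.000882). *Mt-nd1* overlapped between the groups (-0.11 ± 0.19, adjusted p = 0.692). Nuclear-encoded respiratory chain genes were higher in 21 of 67 and lower in 2 with TMM scaling, and higher in 2 and lower in 8 by library size, with medians of 0.30 and -0.09, and 41 were retained. *Atp5if1*, the inhibitor of the ATP synthase, had 144, 124, 125 and 124 CPM in Cont and 214, 222, 218 and 196 CPM in 20 d and was higher under both (0.72 ± 0.07, adjusted p = 6.09e-07, and 0.33 by library size). *Atp5f1b* (0.30 ± 0.07, adjusted p = 0.00320, and -0.08) and *Uqcrh* (0.15 ± 0.07, adjusted p = 0.134, and -0.24) were retained.

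Small structured RNAs parted by family. These are RNAs of the secretory, spliceosomal and nucleolar machinery, of which 55 of 2034 genes in the table were tested, with 25 higher and 16 lower with TMM scaling, and 19 higher and 17 lower by library size. All 25 higher genes but *Rpph1* and 1 copy of a Y or vault RNA belong to the signal recognition particle family, the RNA scaffold that leads ribosomes to the endoplasmic reticulum. In that family 23 of 27 genes were higher with TMM scaling and 19 by library size, none was lower and the median log2 fold change was 0.76, and 0.39 by library size. *Rn7sl1* had 24437, 18925, 15173 and 19103 CPM in Cont and 32585, 31359, 31059 and 34569.7 CPM in 20 d (0.74 ± 0.11, adjusted p = 3.99e-05). *Metazoa_SRP_11* followed it (0.73 ± 0.11, adjusted p = 4.13e-05). These genes are near-identical copies that share reads, so their rises are not separate observations.

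Several families of nuclear and nucleolar RNA held lower members, and none of their members was called higher. All 4 tested copies of *U3*, the RNA that guides cleavage of the ribosomal precursor, were lower (median -2.28), as were all 3 small Cajal body RNAs (median -1.53), 4 of 6 spliceosomal RNAs (median -1.91) and 4 of 9 other nucleolar RNAs (median -1.39). *U3_22* had 1.29, 1.41, 0.914 and 1.28 CPM in Cont and 0.271, 0.150, 0.295 and 0.113 CPM in 20 d (-2.56 ± 0.28, adjusted p = 1.93e-06). *Scarna10* changed by -1.43 ± 0.24, adjusted p = 0.000156, *SNORA74_2* by -1.39 ± 0.18, adjusted p = 1.49e-05 and *Snord17* by -1.88 ± 0.25, adjusted p = 1.53e-05. The related ribozymes RNase MRP and RNase P differed in outcome. *RNase_MRP*, whose RNA cleaves the ribosomal precursor, had 10.6, 11.6, 9.83 and 9.92 CPM in Cont and 1.52, 1.14, 1.66 and 2.10 CPM in 20 d (-2.71 ± 0.14, adjusted p = 2.63e-10). *Rpph1*, the RNA of RNase P, which trims transfer RNA precursors, had 207, 179, 164 and 176 CPM in Cont and 229, 230.0, 224 and 245 CPM in 20 d (0.36 ± 0.07, adjusted p = 0.00121, and -0.02 by library size). The small RNA examples other than *Rn7sl1*, *Metazoa_SRP_11* and *Rpph1* were chosen after their values were seen.

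**Figure D5:**
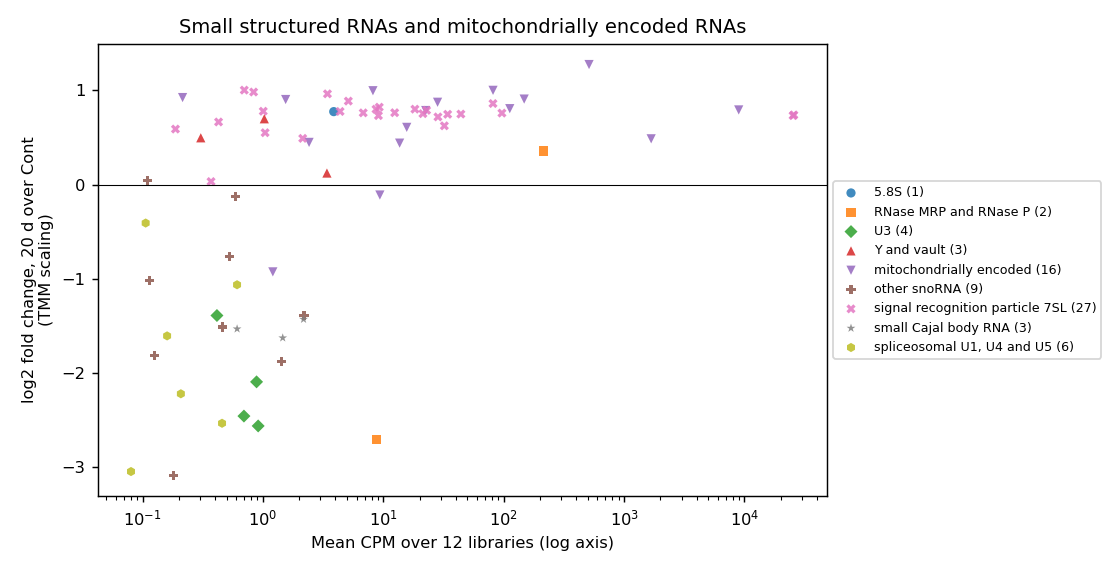
Each marker is a small structured RNA gene or a mitochondrially encoded gene, with its mean CPM over 12 libraries on a log axis and its log2 fold change of 20 d over Cont with TMM scaling. The 27 genes of the 7SL family and most mitochondrial genes lie above 0, although 1 of the 27 is at 0.03 and falls to -0.29 by library size, and the U3, Cajal body and spliceosomal RNAs lie below it, with *RNase_MRP* at -2.71 and *Rpph1* at 0.36 (-0.02 by library size).

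The remaining large falls among genes of at least 2 CPM that were called under both scalings were *Fcgr2a_2*, an Fc receptor copy (-4.34 ± 0.28, adjusted p = 6.09e-09), *Lcp1*, the leukocyte plastin (-4.02 ± 0.29, adjusted p = 2.41e-08), and *Gvin1*, a large interferon-induced GTPase (-4.0 ± 0.20, adjusted p = 2.63e-10). For *Gvin1* the levels were 3.93, 4.02, 4.24 and 2.99 CPM in Cont and 0.135, 0.225, 0.326 and 0.255 CPM in 20 d. The separation of the groups was a condition of their choice. Of the 930 lost genes, 63 stand in a leukocyte list and 763 in none of the 35 lists, and 886 had a mean under 2 CPM.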

How the data were processed

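RNA of washed rat RBCs was depleted of ribosomal RNA, prepared with the NEBNext Ultra II kit and sequenced in paired 36-base reads. The authors mapped reads to mRatBN7.2 with CLC Genomics Workbench and deposited counts per gene (strand use is not given in the sources used here). They also deposited RPKM, TPM and a CPM signal, of which only the RPKM values were used, to recover exon lengths. Deposited columns of each comparison (group mean, fold change, p-value and its corrections) were not used.

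Counts were analysed with edgeR 4.0.16 in R 4.3.3: filterByExpr, TMM factors, 1 fit of the 12 libraries, and the quasi-likelihood test of 20 d against Cont with Benjamini-Hochberg adjustment. Values after ± of a log2 fold change are SE. CPM printed per library is TMM-scaled, and abundance classes use library-size CPM. Values of 4 libraries are given in the order of replicates 1 to 4. The fit was run on simulated counts in which few genes were changed, a setting that cannot test the choice of scaling for these data. Alternatives were DESeq2 1.42.0, other scalings, filters and tests, a replicate block, and each library left out. The study describes its samples as paired by rat, but nothing states which rat gave which library. The main fit therefore left the pairing out, and its p-values measure the spread between these samples.

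The comparison and the gene lists were chosen with earlier results of these data known. Named genes were the 3 most abundant tested members of each list, the 10 largest rises and falls (at least 2 CPM, called under both scalings, no overlap), the 10 most abundant other genes, and the genes of the qPCR assays, of which *Ccl6* and *Rpl13a* were not analysed here. Some genes that the rule names are not reported here. Chosen after their values were seen were *Cd48*, *Pou2af1*, *Vwf*, *Itgb3*, *Sptb*, *Rhd*, *Klf3*, *Zfpm1*, *Pkm*, *Ldha*, *Pklr*, *Gpx4*, *Mx1*, *Gbp2*, *Slfn4_1*, *Psmb8*, *Psmb9*, *Psmb10*, *Mt-nd1*, *Mt-nd3*, *Actg1_2*, *Arpc1b*, *Zyx*, *Pmaip1*, *Ddx5*, *Btg1*, *Hsp90b1*, *Tk1*, *RNase_MRP*, *U3_22*, *Scarna10*, *SNORA74_2*, *Snord17*, *Med25*, *Slc38a5*, *Mrc1* and *Ebf1*.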

Additional observations from a re-analysis of the deposited data

Results flagged for a closer look

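In 16 of the 240 groups of 4 libraries examined for the named genes, 1 library lay far from the other 3. Chance flags about 1 in 20 such groups. The 5 high cases in Cont replicate 1 were *Bnip3l* at 1475 CPM (others 1207 to 1225), *Atp5if1* at 144 CPM (124 to 125), *Mt-co1* at 335 CPM (271 to 278), *Mt-co2* at 55.6 CPM (49.3 to 49.96) and *Rhd* at 75.5 CPM (63.0 to 64.5). *Btg2* was also flagged in that library, as a low case at 3.15 CPM (4.03 to 4.05). Elsewhere in Cont, *Fech* stood at 657 CPM in replicate 3 (501 to 517) and *Mt-nd3* at 1.88 CPM in replicate 2 (1.59 to 1.63).

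In 20 d, *Slc4a1* reached 558 CPM (others 397 to 412) and *Sptb* 136 CPM (75.03 to 80.01), both in replicate 4. *Hbb-b1* reached 524157 CPM in replicate 1 (471700 to 478258), where *Vwf* was lowest at 0.0150 CPM (0.0283 to 0.0310). *Mt-atp8* was highest in replicate 2 at 12.7 CPM (8.40 to 9.04), and *Arpc1b* was lowest there at 0.150 CPM (0.361 to 0.403). In replicate 3, *Fcgr2a_2* stood at 0.481 CPM (0.269 to 0.285) and *Zyx* at 0.512 CPM (0.312 to 0.331).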

How the results depend on the processing

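The count of lower genes (1768 with TMM scaling) was 2911 by library size, 2875 when scaled by globin counts and 643 of 3817 tested with at least 1 CPM in 4 libraries, and without 1 library it ran from 1515 to 1894. The count of higher genes (1075) was 99, 88 and 376 under the same 3 settings and ran from 928 to 1393 without 1 library. By library size, lower genes (2911) numbered 1151 with the 1 CPM filter and 2414 to 3424 without 1 library, and higher genes (99) fell to 69 at the lowest without 1 library. DESeq2 gave 1826 lower and 1131 higher genes. With the Cont and 20 d libraries alone, 7829 genes were tested with TMM scaling, of which 1596 were lower and 915 higher. Retained genes (3583) numbered 693 with an interval within 0.5, and lost genes (930) numbered 1510 at a log2 fold change of -1. The difference in genes with a count ran from -1482.67 to -1365.33 without 1 library. Among named genes called higher with TMM scaling, directions turned when scaled by globin counts and by library size for *Hba-a2* (-0.18, -0.18), *E2f2* (-0.082, -0.074), *Eef1a1* (-0.094, -0.088), *Psma6* (-0.096, -0.0895), *Atp5f1b* (-0.089, -0.084), *Bcl2l1* (-0.057, -0.049) and *Rpph1* (-0.0301, -0.0245), and for *Add2* when scaled by globin counts (-0.0061). The construction of these scalings, which fix the total or the globins, sets this shift and other causes were not tested. Named genes with no call with TMM scaling also turned, as *Slc4a1* did (0.10 to -0.30 by library size).

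A fit with a block for the replicate number called 1842 genes lower and 1372 higher, and by library size 3461 were lower and 207 higher. Deviations of same-numbered libraries correlated at 0.13, 0.055, 0.12 and 0.017 across genes. Cont replicates 1, 2 and 3 each correlated best with their own number in 20 d, and only Cont replicate 4 did not (0.027 with replicate 1). These values do not settle whether the numbers mark the rats, and the main fit did not take the numbers as pairs. Genes under 0.5 CPM are limited by depth.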
